A study of Arabidopsis thaliana with 2 samples.

Results

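Class III peroxidases are the secreted haem peroxidases of plants. Here they are the loci whose deposited product name contains "peroxidase" once ascorbate, glutathione, thiol, lipid, root hair and "peroxidase-like 2" names and 3 named ascorbate peroxidase loci are set aside. That rule matched 72 of the 21808 loci listed in the 2 deposited tables, and 61 of the 72 carry the plant peroxidase domain in the RefSeq annotation of the TAIR10.1 assembly. The results below concern these 61. The family was singled out because of its values in this same comparison, so those values are a description and carry no test.

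Polyadenylated RNA of whole Arabidopsis thaliana seedlings, 10 days old, gave 2 libraries, 1 from the wild type and 1 from double mutants of crwn1 and crwn2. The mutant lacks CRWN1 and CRWN2, coiled-coil proteins of the nuclear lamina, and the labels name no treatment, ecotype or mutant allele for either genotype. The wild-type library held 2.09 M counted reads and the mutant library 2.2 M. CRWN1 was counted 1021 times in the wild type and 57 times in the mutant, and CRWN2 148 and 9 times, so both libraries matched their labels at the mutated genes. With 1 library per genotype there is no replicate check, and the genotype cannot be told apart from harvest, growth or library preparation. In RNA of whole seedlings, fewer cells of a type and less RNA per cell cannot be told apart.

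As background, class III peroxidases pass through the secretory pathway into the cell wall and the vacuole, and they form a large family in land plants. With hydrogen peroxide they oxidise phenolic compounds, which polymerises monolignols into lignin and cross-links wall proteins such as extensins. Several can also produce reactive oxygen species, and members take part in the oxidative burst, in the Casparian strip of the root endodermis and in root hair growth. NADPH oxidases supply the superoxide from which much of the hydrogen peroxide outside the cell is formed.

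The feature that the encoded enzymes share is the haem pocket, where a distal histidine takes part in splitting hydrogen peroxide. The codons around it, for a phenylalanine, the histidine, an aspartate and a cysteine, were found by sequence search in 58 of the 61 loci, of which 36 use CAC and 22 use CAT for the histidine. Below are the 18 coding bases around it for the 3 loci furthest above wild type in the mutant library, the 2 called lower and the one with most reads, with the histidine codon in capitals. They come from the TAIR10.1 genome, each on the strand of its gene.
AT1G30870: cttatcttcCACgattgt
AT3G49960: ctcttcttcCACgactgc
AT4G26010: atgcagtttCATgattgc
AT1G49570: ctccatttcCACgattgt
AT5G19890: cttcatttcCACgactgc
AT4G21960: aacatcttcCATgactgc
The search required these residues, so every printed locus holds them by selection, and other residues of the pocket were not compared. Loci of both directions use CAC for the histidine. The proteins of the 61 loci range from 310 to 372 residues, and 41 genes have 4 coding exons.

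The family as a whole was more abundant in the crwn1 crwn2 library. Its summed reads were 10240 in wild type, 0.489% of the library (exact binomial 95% interval 0.480 to 0.498), and 13826 in the mutant, 0.627% (0.617 to 0.638). The ratio of these shares was 1.28, with an exact conditional binomial 95% interval of 1.25 to 1.32. Such intervals cover counting error only, because there is 1 library per genotype. PCR copies are not independent molecules, so the intervals may be too narrow even for counting error. A single gene, AT4G21960 (PRXR1), dominated the sum in both libraries, and without it 3821 and 6341 reads remained, a ratio of 1.58 (1.51 to 1.64).

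Levels per length, given as RPKM, spanned more than 3 orders of magnitude, and the highest loci were much the same in the 2 libraries. Further down the order moved more. AT1G30870 ranked 56 in wild type and 32 in the mutant, and AT1G49570 ranked 31 and 55. The RPKM of PRXR1 was 1937 (wild type) and 2147 (mutant). It took 62.7% of the family's reads in wild type (61.7 to 63.6) and 54.1% in the mutant (53.3 to 55.0), and its RPKM was 8.26-fold and 5.02-fold that of the next locus. The next was AT3G32980 in both libraries, at 235 and 427 RPKM. AT3G49120 (PRX34, also PRXCB) followed with 157 and 327 RPKM, then AT1G71695 with 137 and 157. AT3G28200 and AT2G38380 were the remaining loci above 100 RPKM in wild type, at 126 and 109. In the mutant AT2G38380 stood at 142 RPKM, AT4G30170 at 116 and AT2G38390 at 101, while AT3G28200 stood at 66.6. Of the 10 highest loci of each library, 9 were shared, among them AT3G21770 at 53.7 and 83.3 RPKM. AT4G33420, at 71.4 and 40.2 RPKM, was among the 10 in wild type only, and AT5G64120 (PRX71), at 19.3 and 56.7 RPKM, in the mutant only. Most loci lay between 1 and 100 RPKM, 44 in wild type and 48 in the mutant, and 11 and 6 lay under 1 or were at 0.

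Differences between the libraries are log2 ratios, mutant over wild type, of the RPKM after 1 is added to it, a scale that understates differences of scarce transcripts. Loci with at least 1 RPKM and 10 reads in either library counted as measured. A locus under this floor in wild type was thus measured only through the mutant library, and the reverse. The values of a pair always stand with the wild type first and the mutant second. A measured locus was called higher or lower if it differed at least 2-fold on that scale and the exact interval of its read ratio excluded equality. Of the 61 loci 47 were measured, and 16 of them (34.0%) were called higher in crwn1 crwn2, 2 (4.26%) lower, and 29 were not called. Among all 14393 measured loci 6.34% were called higher and 4.53% lower. The median log2 ratio was 0.68 for the family and 0.12 for all measured loci, and 36 of the 47 (76.6%) lay above 0, against 59.4% of all. The counting interval lay above equality for 26 of the 47 (55.3%, against 22.4% of all measured loci) and below it for 5 (10.6%, against 12.5%).

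The mutant library was slightly higher across all loci, and scaling it by TMM, a trimmed mean of the ratios, shifted the median of all measured loci by -0.13. On that scale 691 loci were called higher (4.80%) and 826 lower (5.74%), the reverse of the 912 and 652 without it. The family then had 13 loci called higher, 3 lower and a median of 0.55, so more of its loci were called higher than lower on both scales.

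**Figure D1:**
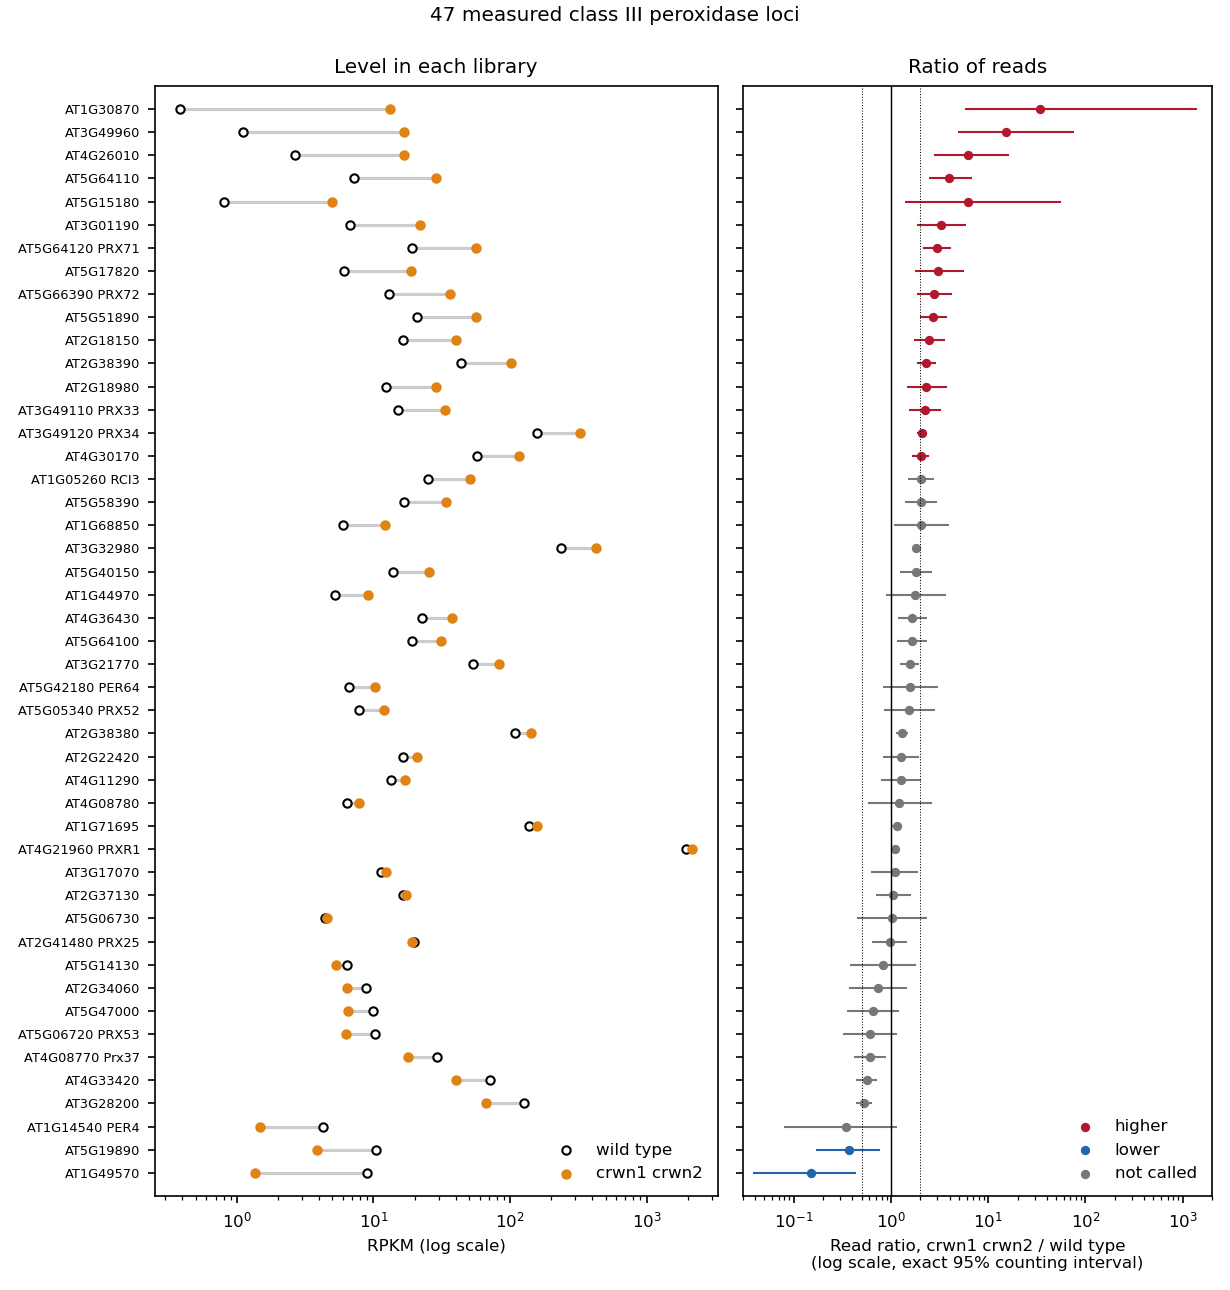
Level and read ratio of the 47 measured class III peroxidase loci, 1 library per genotype, ordered by log2 ratio. The left panel shows RPKM on a log scale, with open circles for wild type and filled circles for crwn1 crwn2. The right panel shows the read ratio, mutant over wild type, on a log scale, with bars for the exact 95% counting interval, dotted lines at 2-fold, and colours for the 16 called higher (red), 2 lower (blue) and 29 not called (grey).

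The 3 loci with the largest ratios were scarce in wild type. AT1G30870 (chromosome 1, 10991485 to 10993023 on TAIR10, plus strand) went from 1 read in the wild type to 36 in the mutant, or 0.386 and 13.2 RPKM. Its log2 ratio was 3.36, its read ratio 34.2 with an interval of 5.76 to 1389, and reads covered 3.96% and 57.2% of its transcript model. AT3G49960 (chromosome 3, 18524084 to 18525687, minus strand) had 3 and 48 reads, or 1.11 and 16.8 RPKM, a read ratio of 15.2 (4.90 to 76.3). AT4G26010 (chromosome 4, 13200593 to 13201941, plus strand) had 7 and 46 reads, or 2.68 and 16.8 RPKM, a read ratio of 6.25 (2.80 to 16.4). The intervals are wide because the wild-type counts are small. All 3 had under 10 reads in wild type, so they counted as measured only through the mutant library. They are named here for their ratios, so the size of these ratios carries no further weight. RefSeq notes expression of AT1G30870 and AT4G26010 in the root alone and gives no note for AT3G49960. These 3 were also the only members called higher when a 4-fold difference was required, a call made for 0.896% of all measured loci.

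The other 13 loci called higher had log2 ratios from 1.0 to 1.86. AT5G64110 had 21 and 88 reads, at a log2 ratio of 1.86, AT5G15180 had 2 and 13 (1.73), and AT3G01190 had 17 and 58 (1.56). AT5G64120 (PRX71) had 52 and 161 reads (1.51), AT5G17820 had 17 and 55 (1.48), AT5G66390 (PRX72) had 33 and 97 (1.41), and AT5G51890 had 53 and 151 (1.40). AT2G18150 had 43 and 111 reads (1.24), AT2G38390 had 112 and 272 (1.19), and AT2G18980 had 28 and 68 (1.14). These 13 loci ran from weakly to strongly expressed members, with RPKM from 0.807 to 157 in wild type and from 4.98 to 327 in the mutant. The last 3 of them were AT3G49110 (PRX33, also PRXCA) with 43 and 101 reads (1.11), PRX34 with 434 and 953 (1.06), and AT4G30170 with 145 and 308 (1.0). These last 3 were within 2-fold after TMM scaling, at log2 ratios of 0.98, 0.92 and 0.87.

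Both loci called lower were of modest level. AT1G49570 (chromosome 1, 18347036 to 18348951, plus strand) had 25 and 4 reads, or 8.95 and 1.36 RPKM, a read ratio of 0.152 (0.0385 to 0.440). AT5G19890 (chromosome 5, 6724115 to 6725923, minus strand) had 28 and 11 reads, or 10.4 and 3.87 RPKM, a read ratio of 0.373 (0.168 to 0.774). A further 3 loci had intervals below equality but differed less than 2-fold. They were AT3G28200 with 290 and 161 reads (log2 ratio -0.91), AT4G33420 with 179 and 106 (-0.81), and AT4G08770 (Prx37) with 76 and 49 (-0.68). AT3G28200 passed 2-fold after TMM scaling, at -1.05, and was the third locus called lower there. AT1G14540 (PER4) had 11 and 4 reads and a log2 ratio of -1.09, but its interval of 0.0803 to 1.17 held equality.

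Just short of the 2-fold line on the upper side stood AT1G05260 (RCI3), named as a gene induced by cold, with 64 and 136 reads (0.99), AT5G58390 with 43 and 92 (0.98), and AT1G68850 with 16 and 34 (0.91). All 3 were called higher with a pseudocount of 0.1 in place of 1. PRXR1 itself had 6419 and 7485 reads, a log2 ratio of 0.15 with a read ratio of 1.11 (1.07 to 1.15), and AT1G71695 had 379 and 455 reads, a ratio of 1.14 (0.993 to 1.31). AT3G32980 had 695 and 1332 reads and a log2 ratio of 0.86. The most abundant member therefore differed little between the libraries, while the next 2 stood 1.82-fold and 2.09-fold higher in the mutant by reads. When the measured loci were split at the median of their mean level, the upper 23 held 9 called higher and 0 lower with a median of 0.86, and the lower 24 held 7 and 2 with a median of 0.31. No share of all measured loci at these levels stands beside this split, and the difference was not tested.

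**Figure D2:**
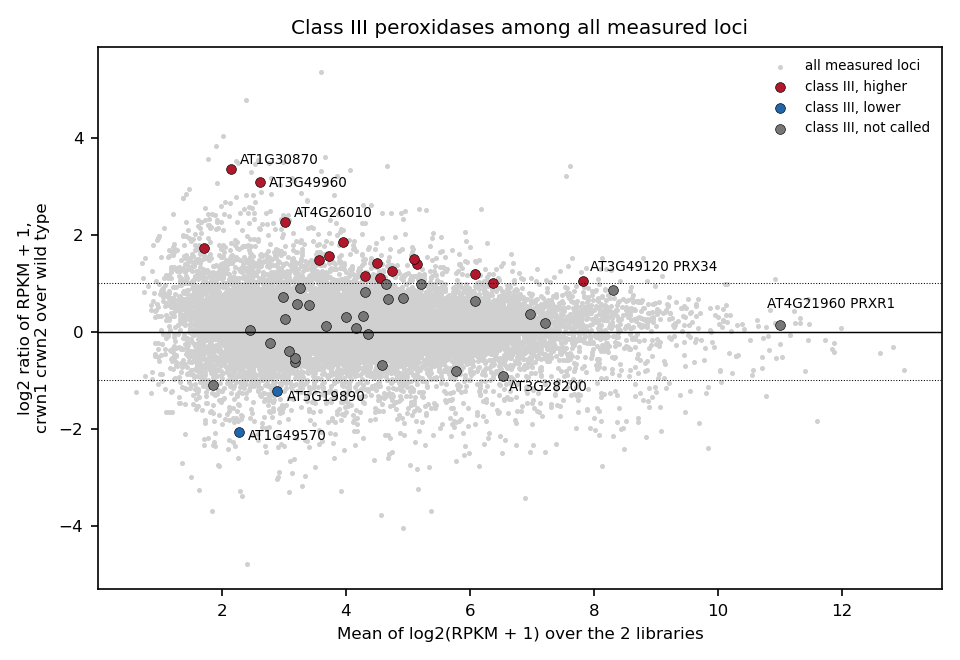
The log2 ratio of RPKM + 1, crwn1 crwn2 over wild type, against the mean of log2(RPKM + 1) over the 2 libraries. Grey points are the 14393 measured loci, and large points are the 47 class III peroxidases, red where called higher, blue where lower and dark grey where not called. Loci called higher appear at low and at high levels, and PRXR1 stands at the far right near 0.

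Ordered by role, peroxidases linked to lignin were higher in part. The list held 11 loci, 10 of them measured, with 3 called higher, 0 lower and a median log2 ratio of 0.56. The 3 were AT5G51890, PRX71 and PRX72, at 20.9 and 56.6, 19.3 and 56.7, and 12.9 and 36.1 RPKM. PRX72 is known for lignification of the stem, and PRX71 for limiting cell growth when the wall is damaged. Not called were AT4G36430 with 58 and 101 reads (0.70), AT5G42180 (PER64) with 17 and 28 (0.58), AT5G05340 (PRX52) with 20 and 32 (0.55), and AT2G22420 with 40 and 53 (0.32). AT2G41480 (PRX25) stood at 50 and 51 reads (-0.04), and AT4G33420 and PER4, both lower, are given above. AT1G05250 (PRX2), the remaining locus, was listed in neither table.

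Peroxidases of the Casparian strip, the lignin band that seals the root endodermis, were all above 0 but mostly within 2-fold. All 5 were measured, with 1 called higher, PRX72, and a median of 0.72. RCI3 and PER64 are given above, AT1G44970 had 14 and 26 reads (0.72), and AT4G11290 had 34 and 45 (0.31). PER64 is the peroxidase known to localise at the strip, and its interval of 0.827 to 3.05 held equality.

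Peroxidases linked to the oxidative burst and defence fell on both sides. Of 9 loci 7 were measured, with 3 called higher, 0 lower and a median of 0.07. PRX33 and PRX34, which contribute much of the apoplastic oxidative burst, and PRX71 were the 3 called higher. AT2G37130 was level, with 47 and 52 reads (0.07) that covered only 15.14% and 11.98% of its model. On the other side stood AT5G06720 (PA2) with 28 and 18 reads (-0.63, read ratio interval 0.318 to 1.14), Prx37 and PER4. AT1G14550 had 2 and 1 reads and AT5G39580 had 4 and 0, both too few to be measured.

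The list for root hair growth held 5 loci, of which 4 appear in the tables, 3 were measured and 2 were called higher. AT4G26010 was called higher (2.27), AT5G64100 had 50 and 86 reads and was not called (0.68), AT5G39580 was not measured and AT1G05240 was not listed. AT5G67400, which carries the domain but is named root hair specific 19 and so fell outside the rule, had 2 and 44 reads, or 0.784 and 16.4 RPKM, a log2 ratio of 3.29. The read ratio of 20.9 (5.45 to 178) stands beside 15.2 (4.90 to 76.3) for AT3G49960, its nearest relative in protein sequence at 81.2% identity. The similarly named AT5G22410, root hair specific 18, had 3 and 5 reads.

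Peroxidases that UPB1 represses in the root tip, and those of seed and anther, were few. UPB1, a bHLH transcription factor, had 16 and 13 reads itself, or 12.9 and 9.97 RPKM, and was not called (-0.34). Of its 3 listed targets, AT5G17820 was called higher (1.48), AT4G11290 was not called (0.31), and AT4G16270 had 0 and 2 reads. Of 4 seed and anther loci, AT2G18980 was called higher, with 12.4 and 28.6 RPKM, AT1G44970 was not called, and AT3G50990 (PER36) with 2 and 0 reads and AT4G16270 were not measured.

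**Figure D3:**
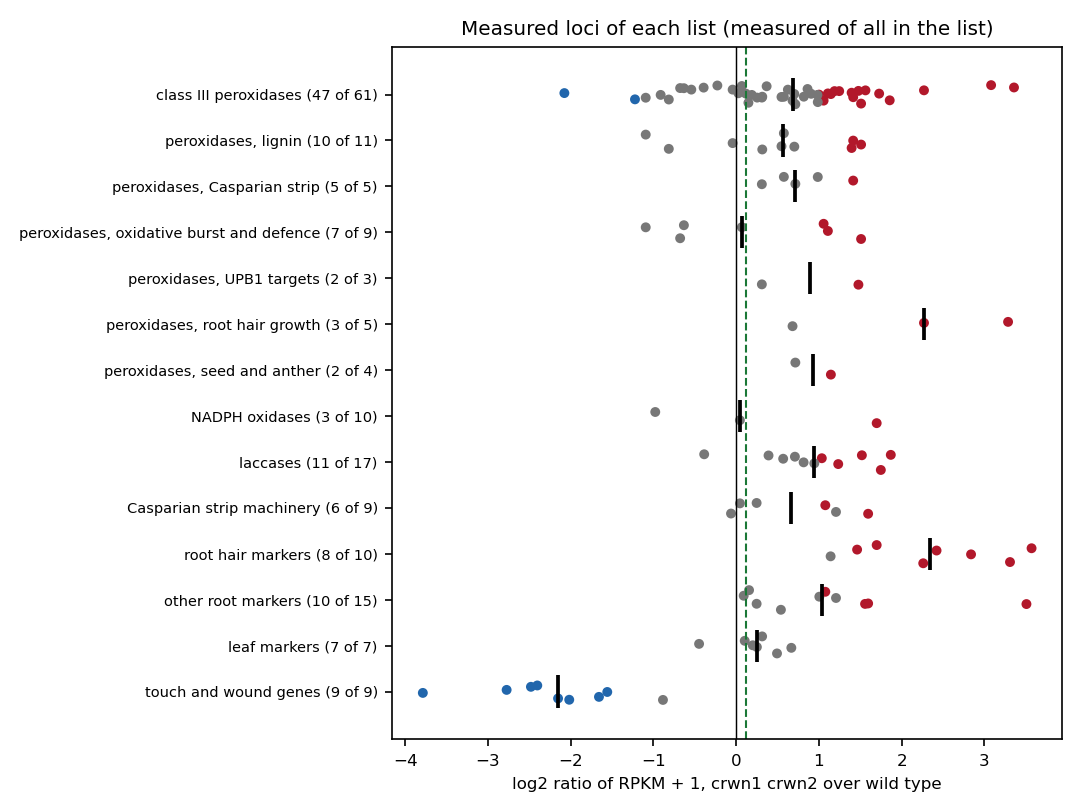
The log2 ratio of RPKM + 1, crwn1 crwn2 over wild type, for each measured locus of the family, its role lists, related enzyme lists and marker lists. Points are loci, red where called higher, blue where lower and grey where not called, black bars are list medians, and the dashed green line is the median of all measured loci, 0.12. The family's median stands at 0.68, root hair markers at 2.34 and touch and wound genes at -2.15.

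Loci were grouped by the plant structures that RefSeq notes for their expression, a grouping made after the values were seen. The median log2 ratio was higher for loci noted for the root alone or nearly so than for the remaining loci with a note. Of 16 loci noted for the root alone or with hypocotyl, stem, callus or cultured cells, 11 were measured, with 6 called higher, 0 lower and a median of 1.0. The remaining 40 notes name other structures, some with and some without the root, or give only a number of structures. PRXR1, for example, is noted for 24 plant structures, and whether the root is among them is not stated. Of these 40 loci 34 were measured, with 8 called higher, 2 lower and a median of 0.43. The 5 loci with no note had 2 measured, AT3G49960 and AT2G18150, both called higher. The difference between these groups was not tested.

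Markers of root hair cells were mostly higher as well. Of 10 such markers 8 were measured and 7 called higher, their levels summed to 8.24 and 88.8 RPKM, and EXPA7 and EXPA18 were at 0 reads in wild type. All 8 had under 10 reads in wild type and were measured only through the mutant library. The floor thus favoured a call of higher, and the count of 7 is a description only. Other root markers were higher in 4 of 10 measured, with 97.9 and 172 RPKM in sum. Of these 4, AGP30, HKT1 and CASP2 had 3, 5 and 9 reads in wild type, also under the floor, and CASP1 had 18. None of 7 leaf markers was called, at 12559 and 12535 RPKM in sum, but 6 lay above 0, with a median log2 ratio of 0.25. Reads covered only 10.05% of the RBCS1A model in both libraries, 21.81% and 23.2% of CA1, and 5.91% and 8.04% of RCA. Their levels may thus not stand for the whole gene, while the other leaf markers were covered at 86.39% or more. The near-equal sums of the leaf markers hold opposite differences, with PSBR at 7288 and 5343 RPKM and RBCS2B at 2221 and 3526. Touch and wound genes were lower in 8 of 9, with 5255 and 1294 RPKM in sum. The part of what these markers reflect in the peroxidase differences was not tested.

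Enzymes that work beside the peroxidases were mixed, and RBOHC and the CASP genes below are also among the root hair and other root markers. Of 10 NADPH oxidases 3 were measured. RBOHC, the root hair oxidase, was called higher with 8 and 43 reads (1.70), and RBOHF had 149 and 162 (0.04). RBOHD, the main oxidase of the immune burst, had 407 and 214 reads (-0.98). It fell just short of 2-fold and was not called, though its read ratio of 0.500 (0.422 to 0.591) lay below equality. Laccases, the copper enzymes that also polymerise monolignols, had 11 of 17 measured, 5 called higher and 0 lower, with a median of 0.94. The 5 were LAC11 with 2 and 19 reads (1.87), LAC10 with 1 and 13 (1.75), LAC1 with 4 and 20 (1.52), LAC13 with 14 and 40 (1.23), and LAC3 with 21 and 50 (1.03). Among 6 measured genes of the Casparian strip machinery, CASP1 with 18 and 61 reads (1.59) and CASP2 with 9 and 22 (1.08) were called higher, and the median was 0.66.

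Many class III peroxidase genes lie side by side on a chromosome or have near-identical copies, so reads could be lost or exchanged between them. The counts are headed as unique reads, and how a read was judged unique is not stated. A 49-base stretch, the median length covered in models with 1 read, was shared with a transcript of another locus in 12 of the 47 measured loci. The search took transcripts of any gene on either strand, so a shared stretch need not come from a peroxidase copy. AT1G30870, for example, had 2.70% of its transcript shared, while its nearest protein in the family is 44.4% identical. Those 12 had 7 called higher, 0 lower and a median of 1.08, while the 35 without a shared stretch had 9 higher, 2 lower and a median of 0.58. The clearest case is AT1G05240 and AT1G05250, whose 978 coding bases do not differ at any position. Their first 120 coding bases are shown because neither gene appears in either table.
AT1G05240: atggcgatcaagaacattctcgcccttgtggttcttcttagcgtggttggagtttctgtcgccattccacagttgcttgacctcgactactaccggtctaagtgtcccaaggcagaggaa
AT1G05250: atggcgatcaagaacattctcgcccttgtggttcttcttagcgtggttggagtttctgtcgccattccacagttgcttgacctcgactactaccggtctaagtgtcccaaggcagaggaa
Shared stretches made up 59.4% of the AT1G05240 transcript and 100% of that of AT1G05250, and their absence from the tables is no measure of their expression.

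PRX33 and PRX34 are the most alike pair with both loci called higher, and their proteins are 92.9% identical and their coding sequences 90.8%. The aligned 120 bases below start at coding base 25 of PRX33 and coding base 22 of PRX34, and capitals mark the 21 positions at which they differ.
PRX33: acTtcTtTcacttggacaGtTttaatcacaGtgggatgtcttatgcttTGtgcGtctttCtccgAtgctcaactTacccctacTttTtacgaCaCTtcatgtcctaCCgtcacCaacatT
PRX34: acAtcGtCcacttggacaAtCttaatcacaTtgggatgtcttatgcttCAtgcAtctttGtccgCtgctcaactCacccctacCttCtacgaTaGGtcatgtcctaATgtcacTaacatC
The longest identical run is 17 bases in this window and 111 bases over the coding alignment. Shared stretches made up 6.66% and 6.85% of the 2 transcripts, and the read ratios were 2.23 (1.55 to 3.27) and 2.09 (1.86 to 2.34). The 2 genes lie 4385 bases apart on chromosome 3. AT3G32980, 89.2% identical to PRX34, lies elsewhere on that chromosome and had no shared stretch.

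Among 25 pairs of loci that are each other's nearest relative by protein identity, 12 had both loci measured, 9 with the same direction and 3 with opposite directions. As 36 of the 47 measured members lay above 0, a shared direction is common among members in general, and other pairs were not counted. The pairs include that of AT3G49960 and AT5G67400, which is outside the rule. In 3 pairs the counting intervals did not overlap. AT3G28200 and AT5G40150, 79.4% identical, went opposite ways, with 290 and 161 reads against 45 and 86, at log2 ratios of -0.91 and 0.82. AT5G40150 shares 16.1% of its stretches with other transcripts. AT2G38380 and AT2G38390, 89.4% identical and 897 bases apart, had 316 and 430 reads (0.37) and 112 and 272 reads (1.19). AT5G64100 and AT5G64110, 66.0% identical, differed likewise at 0.68 and 1.86. Nearest relatives in the family thus did not always hold the same ratio between the libraries. Of these 3 pairs, only AT2G38380 and AT2G38390 are at least 85% identical.

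**Figure D4:**
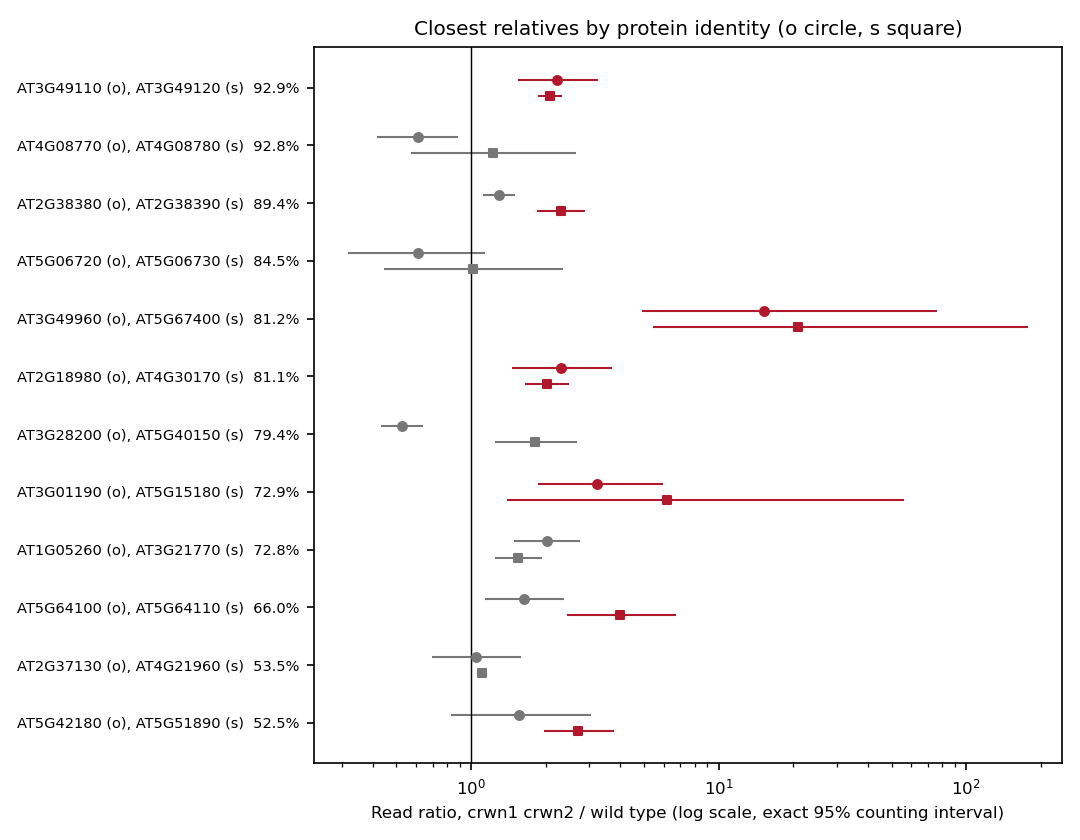
Read ratio, crwn1 crwn2 over wild type on a log scale, of the 12 pairs of nearest relatives with both loci measured, with exact 95% counting intervals as bars and protein identity beside the names. Circles are the first locus and squares the second, red where called higher and grey where not called. The intervals are apart for AT2G38380 and AT2G38390, AT3G28200 and AT5G40150, and AT5G64100 and AT5G64110.

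Clusters on the chromosomes held 21 of the 61 loci, as 9 pairs and 1 triple with at most 10 kb between neighbours, and 2 more loci lay beside a locus that was not listed. Of these 23 loci 17 were measured, with 7 called higher, 1 lower and a median of 0.98, and of the other 38 loci 30 were measured, with 9 higher, 1 lower and a median of 0.60. The difference between these groups of neighbours and others was not tested. The triple on chromosome 5, AT5G64100, AT5G64110 and PRX71, had 50 and 86, 21 and 88, and 52 and 161 reads, all more in the mutant. AT5G19890, called lower, lies 1598 bases from AT5G19880, with 0 and 4 reads, and AT4G26010, called higher, lies 8906 bases from AT4G25980, with 4 and 1 reads. Prx37 lies beside AT4G08780, with 14 and 18 reads, and PA2 beside AT5G06730, with 13 and 14. AT2G18150, called higher, lies beside AT2G18140, 88.7% identical, with 1 and 0 reads, and AT4G37520 and AT4G37530 had 3 and 8 and 5 and 4 reads. RCI3 lies beside the unlisted AT1G05250, and AT5G58390 beside the unlisted AT5G58400.

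Promoters of the family were read as the 300 bases upstream of the gene start, and letters of known motifs were searched on both strands. The E-box CANNTG, the type of site that many bHLH factors bind, was present in 42 of 61 members (68.9%) and in 62.8% of all 21674 promoters of that length. The G-box CACGTG, which is also an E-box, was in 3.28% of members and 7.76% of all, and the W-box TTGACC or TTGACT of WRKY factors in 31.1% and 31.9%. The AC element ACCTACC of lignin genes was in 0 members and 1.40% of all promoters. The root hair element, a motif added after the values were seen, was in 2 members (3.28%) and 0.867% of all. The promoter of AT1G30870, the locus with the largest ratio, is shown with its 2 E-boxes in capitals (TAIR10.1, chr1:10991178-10991477, plus strand).
AT1G30870: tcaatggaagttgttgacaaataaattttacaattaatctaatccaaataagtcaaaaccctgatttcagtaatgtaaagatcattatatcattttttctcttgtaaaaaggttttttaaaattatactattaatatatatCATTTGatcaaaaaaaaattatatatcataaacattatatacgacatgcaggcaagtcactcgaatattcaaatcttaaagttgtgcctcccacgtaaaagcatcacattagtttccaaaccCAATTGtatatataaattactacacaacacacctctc
The windows of AT3G49960 and AT4G26010, the next by ratio, held no E-box. A match of letters is a description and not a site of binding.

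The remaining 14 of the 61 loci were not measured, with at most 8 reads in either library. They summed to 25 and 42 reads, 8 of them with more reads in the mutant and 6 with fewer. Besides those given above they are AT2G39040 with 0 and 5 reads, AT2G43480 with 0 and 4, AT2G24800 with 0 and 3, AT1G34510 with 1 and 6, and AT2G35380 with 3 and 4. A difference in these loci was not detectable at this depth. Of 74 loci that RefSeq annotates with the domain, ascorbate and glutathione types aside, 61 met the rule, 2 are the root hair specific genes and 11 were not listed in either table.

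The rule also matched 11 loci that lack the plant peroxidase domain. There are 5 acid phosphatase or haloperoxidase-related proteins, the thioredoxin-dependent TPX1 and TPX2, OCP3, a regulator named for peroxidase expression, DOX1, an alpha-dioxygenase that oxidises fatty acids, a pseudogene and a short peroxidase family protein, AT1G33660. Of the 11 loci 7 were measured, and 1 was called higher, DOX1 (AT3G01420) with 241 and 527 reads, or 51.0 and 106 RPKM (1.04). With these loci included, 17 of 54 measured loci were called higher, 2 lower, and the median was 0.60.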

How the data were processed

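Polyadenylated RNA of 1 wild-type and 1 crwn1 crwn2 seedling library was selected with oligo(dT) and read on an Illumina instrument, as the labels' protocols state. The deposited counts are whole reads per transcript model, under a header that names unique reads. The deposited RPKM values equal these counts divided by model length and library total, per the file headers. A deposited percent column holds the part of a model that reads cover. Coordinates are on TAIR10, per the submitters' processing notes. For the aligner, the counting rule and what made a read unique, details were not given in the sources used here. No strand setting is stated either, so a gene and its antisense partner may share reads.

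Reads and RPKM were summed per locus. No test between genotypes was run. Ratios used a pseudocount of 1, a floor of 1 RPKM and 10 reads, a 2-fold threshold and exact conditional binomial (Clopper-Pearson) 95% intervals (SciPy 1.17.1). TMM and RLE factors came from edgeR 4.0.16 in R 4.3.3. Sequences came from RefSeq's TAIR10.1 genome, whose nuclear gene coordinates were checked against the deposited transcript models. Of 5533 loci of chromosome 1 in both, 5531 overlapped the same locus. A start or an end was identical in 3154 and both ends in 1090, so most model ends differed. No protein table was used, and proteins were translated from the genome with Biopython 1.88. The calling script was tested on simulated data.

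Members and lists were chosen with earlier results of these data known. Named were members called, the 10 highest by RPKM, role-list members, and chromosome neighbours or pairs at least 85% identical. Other members and the expression-note groups were chosen after their values were seen. Alternatives using all 72 loci, or only loci with no shared 49-base stretch, were added after seeing the data.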

Additional observations from a re-analysis of the deposited data

How the results depend on the processing

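The counts of 16 loci called higher and 2 lower, and the median log2 ratio of 0.68, kept their direction under every alternative run. Only the fold threshold and the removal of loci with a shared 49-base stretch moved a count by over 1.5 times. At a 4-fold threshold 3 of the 47 measured loci were higher and 1 lower, against 0.896% and 0.750% of all measured loci. At 1.5-fold 24 were higher and 5 lower, against 13.8% and 8.30% of all. Among the 35 measured loci with no shared 49-base stretch 9 were higher and 2 lower, against 6.34% and 4.53% of all. Scaling gave 13 higher and 3 lower by TMM and 14 and 3 by RLE, with medians of 0.55 and 0.58. Of all measured loci, 4.80% were higher and 5.74% lower by TMM, and 5.04% and 5.43% by RLE. A pseudocount of 0.1 gave 19 and 2, against 7.29% and 4.97% of all. A floor of 5 RPKM gave 15 and 2 of 44 measured, against 6.14% and 4.80%. No floor, CPM, and loci with 1 listed model each gave 16 and 2. The shares of all loci were 4.59% and 3.13% with no floor, where all 61 members counted, and 6.80% and 4.69% by CPM. The ratio of summed reads, 1.28, was 1.17 by TMM, 1.19 by RLE and 1.58 without AT4G21960. The TMM and RLE values are lower because those factors scale the mutant library down, and 1.58 follows from removing the locus with most reads. Under RLE the calls of AT3G49120 (0.95) and AT4G30170 (0.90) were lost and AT3G28200 (-1.02) was called lower. No replicate could be left out with 1 library per genotype. No paired analysis was possible because each genotype has 1 library. At this depth loci with under 10 reads could not be measured.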
